A study of Bos taurus with 4 samples.

Results

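The far distal loci are the stretches of the bull sperm genome that were enriched for oxidised guanine, were annotated as distal to every gene, and lay more than 400 kb from the nearest annotated transcription start site (TSS). They were chosen by annotation and distance alone, with no measured value in the rule, and there were 212 of them among 984 listed loci. The list of bull C13 held 78 among 370 loci and the list of bull C14 held 134 among 614. Both bulls were Korean native striped cattle, 6 years of age. C13 was fertile, and C14 was infertile, with sperm of poor motility and abnormal shape. Sperm DNA was sheared to fragments near 150 bp, and for each bull 1 library of fragments captured through 8-oxo-7,8-dihydroguanine (8-oxoG) was set against 1 library of input DNA, 4 libraries in all. With 1 animal per group, no test between fertile and infertile animals was possible, and each test here compares loci of the lists. The identity of the cells could not be checked, since a list of DNA loci holds no expression markers.

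Guanine is the base most easily oxidised, and 8-oxoG is a frequent product. Cells cut the lesion out by base excision repair, and what is left can be miscopied into a G-to-T change. Mature sperm pack most of their DNA with protamines and have little repair capacity, so that repair is left largely to the oocyte after fertilisation. A gene desert is a long stretch without protein-coding genes, and some deserts hold enhancers that act over long distances. A nearest-gene label in such a stretch names the closest TSS in the annotation and carries no evidence that the locus acts on that gene.

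Far loci took the same part of both lists. In C13 they made up 21.1% (95% Wilson interval 17.2 to 25.5), and in C14 they made up 21.8% (18.7 to 25.3). By a two-sided exact test of Fisher, whose p was 0.811 before and 0.811 after Benjamini-Hochberg adjustment over 3 tests, the shares did not differ beyond counting error. Fisher's test treats the loci as independent, which neighbouring loci are not, and the intervals cover counting error only. The rows of the lists are summits, so an interval with more than 1 summit has more than 1 row. The 78 far rows of C13 lay in 75 distinct intervals and the 134 of C14 in 124.

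Distances ran over a wide range in both bulls. In C13 the far loci lay 418716 to 2774569 bp from the TSS, with a median of 854621 bp. In C14 they lay 405048 to 2947680 bp away, with a median of 770738 bp. Most were nearer than 1 Mb, and 22 of C13 (28.2%) and 26 of C14 (19.4%) lay beyond it. Only 2 of C13 and 4 of C14 lay beyond 2 Mb. Upstream positions were a little more frequent than downstream ones, with 42 of 78 (53.8%) in C13 and 83 of 134 (61.9%) in C14, as among the distal loci up to 400 kb (58.3% and 64.6%).

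The farthest locus of C13 lay 2774569 bp upstream of GBE1, the glycogen branching enzyme, on chromosome 1, with a pileup of 4, the number of captured fragments stacked at the summit. Next came 3 loci upstream of the uncharacterised reading frame C6H4orf19 on chromosome 6, at 2281850, 1928394 and 1927315 bp, with pileups of 7, 10 and 11. The fifth was 1420418 bp downstream of TMEM261, a mitochondrial membrane protein gene, with a pileup of 5. The most remote loci of C13 were therefore weak or moderate in pileup. In C14 the farthest lay 2947680 bp downstream of PSPC1, a paraspeckle RNA-binding protein gene on chromosome 12, with a pileup of 16. A second PSPC1 locus at 2702352 bp also had a pileup of 16, and a locus 2706832 bp from UBE2E2, which encodes a ubiquitin-conjugating enzyme, had 6. The C6H4orf19 loci at 2281817 and 1928463 bp had pileups of 16 and 23. C6H4orf19 was thus among the farthest in both lists, with distances that differed by less than 100 bp.

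The loci next to the limit were similar in pileup on both sides of it. The nearest far loci of C13 were at DOK5, an insulin receptor adaptor gene (418716 bp, pileup 12), and ACO1, the cytosolic aconitase and iron regulatory protein (420929 bp, pileup 4). Just outside lay FERMT1 at 355142 bp with a pileup of 9 and EFCAB2 at 350960 bp with 4. In C14 the nearest were at IRF4 (405048 bp, pileup 15) and ZP4 (406613 bp, pileup 11), a lymphoid transcription factor and an egg coat glycoprotein. Just outside were ACO1 at 395988 bp with a pileup of 18 and UBE3A at 385247 bp with 13, so the loci around ACO1 fell on both sides of the limit.

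**Figure D1:**
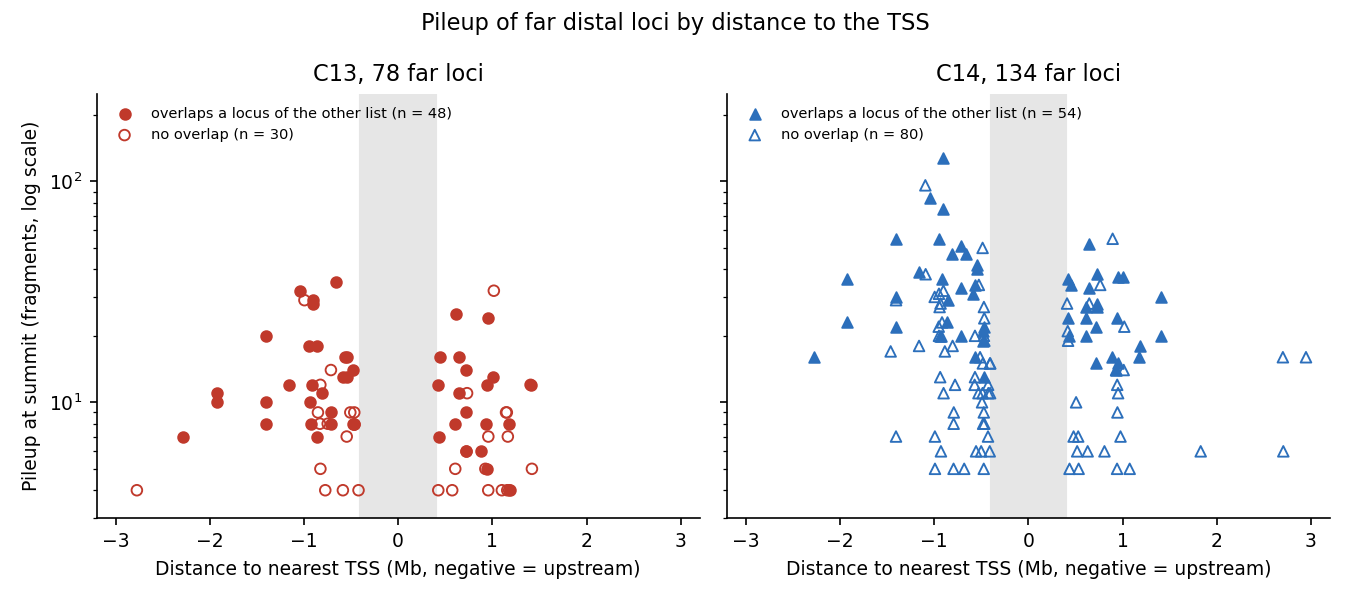
Pileup at the summit (fragments, log scale) of each far locus against its distance to the nearest TSS (Mb, negative upstream), for C13 (circles, n = 78) and C14 (triangles, n = 134). Filled points overlap a locus of the other list, open points do not, and the grey band is the range within 400 kb that the rule leaves out. The highest pileups, 35 in C13 and 128 in C14, lie nearer than 1 Mb, and the loci beyond 2 Mb reach 7 in C13 and 16 in C14.

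The label of a gene desert was checked against a second annotation, the RefSeq genes of assembly ARS-UCD2.0, which differs from the assembly of the lists (bosTau8), so only names and gene order were compared. All 66 nearest genes were found. Every one of the 212 far loci had been assigned through a curated mRNA accession (NM). The other loci were not counted in this way, so this is not shown to be a trait of the far loci. For 63 genes on the same chromosome in both annotations, the next protein-coding gene on the side of the locus had no NM transcript in 45 (71.4%), and 164 far rows lay on these sides. No such share was computed for the nearest genes of the other loci, so 71.4% cannot be read as particular to the far loci. Next to WBSCR17 that gene was AUTS2, next to CPS1 it was ERBB4, next to ACO1 it was LINGO2, next to GBE1 it was CADM2 and next to YPEL5 it was ALK. These 5 were picked as examples after the table was seen, and many of the rest are unnamed. Whether a far locus lies in such a gene was not tested, since coordinates were not carried between assemblies. The other 3 genes lay on another chromosome in ARS-UCD2.0 than in the lists: SRY (13 in the list, Y in ARS-UCD2.0), MSANTD3 (15 and 8) and R3HDM2 (16 and 5). They are the nearest genes of 11 far rows, whose distances depend on the placement in the older assembly. The loci are therefore called far distal loci here, since the distance is to the TSSs used in the annotation and may not mean an absence of genes.

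The far loci were unevenly spread over the chromosomes. They lay on 19 of the 29 chromosomes with any C13 locus and on 26 of 30 in C14, and chromosomes 5, 10, 19 and 21 had none in either list. Chromosomes 8, 14, 7, 22 and 6 held 100 of the 212 far rows (47.2%), against 28.5% of all listed loci. These 5 were picked for their counts, so the shares are a description.

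Chromosome 8 had the most far loci in C13, 17 of 78 (21.8%), while it held 9.46% of all C13 loci. In C14 its share was 13 of 134 (9.70%), against 9.61% of all C14 loci. On chromosome 14, 9 of 13 C13 loci and 13 of 22 C14 loci were far ones. The reverse held on chromosome 1, where 1 of 35 and 3 of 67 loci were far. Chromosome 27 had 1 far locus among 30 in C13 and 9 among 60 in C14. The X chromosome had none among 11 in C13 and 1 among 18 in C14.

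**Figure D2:**
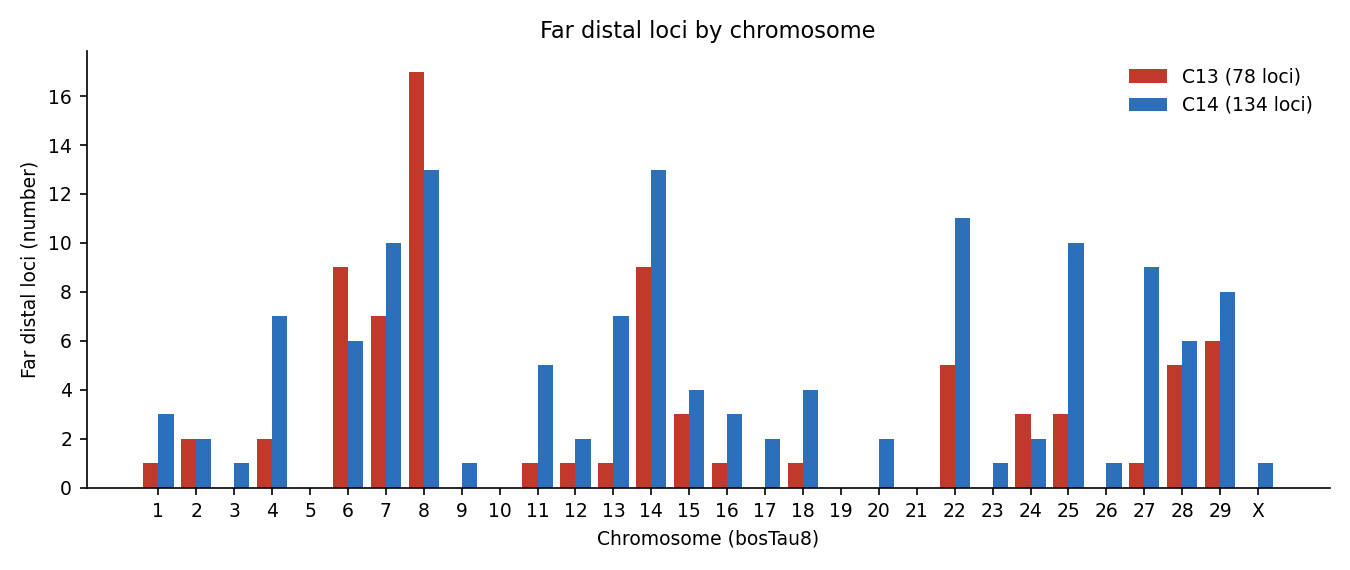
Number of far distal loci on each chromosome (bosTau8) in C13 (red, 78 loci) and C14 (blue, 134 loci). Chromosome 8 is the tallest in C13 with 17, and chromosomes 8 and 14 share the top in C14 with 13 each.

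Pileup at the far loci was like that of the rest of each list, and fold enrichment was lower in C14. The pileup ran from 4 to 35 in C13 with a median of 9 (95% interval of the median 8 to 11, n = 78), against 10 at the other C13 loci. In C14 it ran from 5 to 128 with a median of 19.5 (16 to 22, n = 134), against 18. The far loci were thus neither above nor below the rest in stacked fragments beyond these intervals. The fold enrichment over the local background had a median of 7.27 in C13 (6.47 to 7.93), against 7.59 (7.05 to 7.93) elsewhere. In C14 the median was 5.87 (5.40 to 6.45), against 7.12 (6.60 to 7.56) at the other loci, so that the intervals did not overlap in C14. These intervals take the loci as independent, and most far rows lay close to another far row.

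The widths did not differ beyond their intervals. The far width had a median of 268.5 bp in C13 (227 to 335) against 233.5 bp (227 to 248) at the other loci. In C14 the medians were 253.5 bp (236 to 291) and 237 bp (231 to 244). With each interval counted once, the far medians were 249 bp in C13 and 242 bp in C14. A −log10 q of at least 5 was reached by 54 of the 78 far loci in C13 (69.2%, where 70 percent of all C13 loci did) and by 88 of 134 in C14 (65.7%, where 68.4 percent did). A pileup of 7 or less was found at 25 far loci of C13 (32.1%, against 34.9% of all C13 loci) and 23 of C14 (17.2%, against 17.6%).

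The highest pileups of C13 were 35 near NDST3, a heparan sulfate sulfotransferase gene, 32 near TLE4, a Groucho-family corepressor gene, and 32 near C14H8orf33, an uncharacterised reading frame on chromosome 14. In C14 the 3 highest, 128, 96 and 84, were all near C14H8orf33. Ranked by fold enrichment the order changed. C13 was then led by TLE4 at 19.2, MSANTD3 at 16.4 and NUDT12 at 15.4, and C14 by R3HDM2 at 27.4, C6H4orf19 at 27.2 and MSANTD3 at 23.3. MSANTD3 carries a Myb/SANT DNA-binding domain, and NUDT12 is a peroxisomal NADH hydrolase.

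The local background, which is the fragment number that the caller expected at the summit, was, among the far loci, highest near C14H8orf33. It was calculated by adding 1 to the pileup, dividing the sum by the fold enrichment and taking away 1. Each list had a lowest value shared by many scattered loci, a floor that is not read here as local input. The floor held at 16 of 78 far loci in C13 (20.5%, against 30.5% of all C13 loci). In C14 it held at 11 of 134 (8.21%, against 8.14%). Over all far loci the background ran from 0.135 to 7.32 fragments in C13 (median 0.235) and from 0.359 to 36.5 in C14 (median 1.29). At the C14H8orf33 loci it was 7.91 to 54.3 times the lowest value of the list in C13 and 7.09 to 102 times in C14. Among the far loci the 4 highest values of each list were at C14H8orf33, while the other loci reached 14.2 fragments in C13 and 60.7 in C14. The lower C14H8orf33 values lay within the range of other genes such as PEX2 (17.5 times in C13) and HSD17B4 (27.0 times in C14). The locus with a pileup of 96 had a fold enrichment of 2.67 and that with 84 had 2.27, the lowest of all C14 loci. The locus with 128, by contrast, had 8.41. A background over 10 times the lowest was found at 9 of the 78 far loci in C13 (11.5%, where 10.5 percent of all C13 loci had it) and at 27 of 134 in C14 (20.1%, where 19.7 percent had it). Of these, 5 in C13 and 6 in C14 were C14H8orf33 loci.

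**Figure D3:**
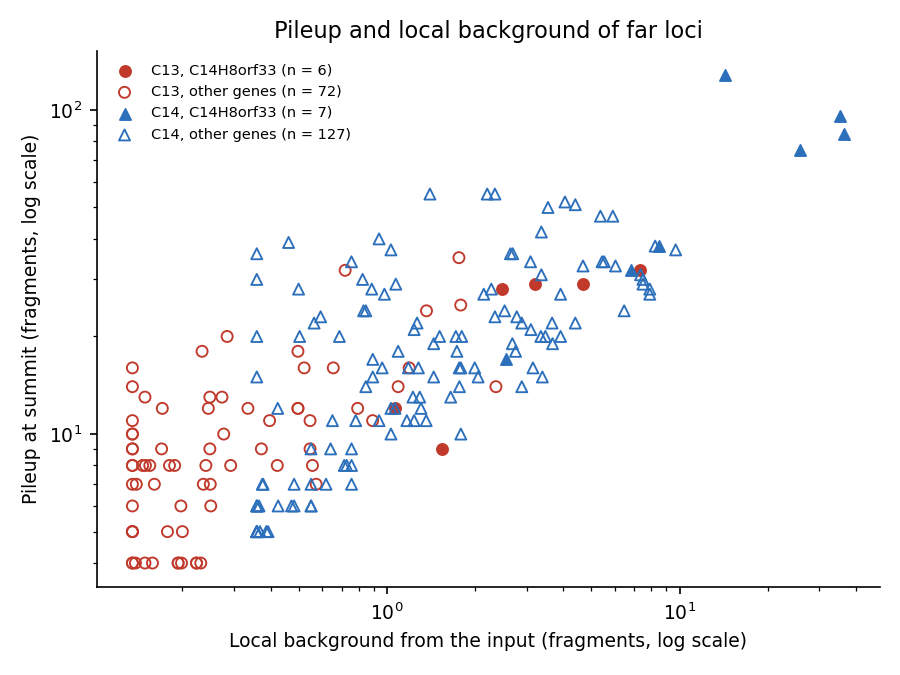
Pileup at the summit against the local background (both in fragments, log scale) for the far loci of C13 (circles) and C14 (triangles). Filled points are loci near C14H8orf33 and open points those of other genes. The 4 points farthest to the right in each list are C14H8orf33 loci, up to a background of 7.32 in C13 and 36.5 in C14, and the others of this gene lie among those of other genes.

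Many far loci lay close together, as did the other loci. Linking far intervals of both lists that lay within 100 kb of each other gave 72 groups, of which 42 were a single interval and 30 held several. Groups of 5 rows or more numbered 15 and held 127 of the 212 rows (59.9%). The other loci, linked in the same way, gave 289 groups, of which 61.2% were a single interval against 58.3% of the far groups, and 50.8% of their rows lay in groups of 5 or more. The groups of several far intervals spanned a median of 4.59 kb, and the longest spanned 268 kb. Neighbouring far intervals of C13 were a median of 18200.5 bp apart and those of C14 13410 bp, against 90277 and 45958 bp between the other loci. Gaps of up to 100 kb were a larger part of the far gaps, 38 of 56 against 125 of 249 other gaps in C13. In C14 they were 59 of 98 against 220 of 421. Counted over all intervals, including those with no next interval on the chromosome, they were 50.7% of far and 45.0% of other intervals in C13. In C14 these shares were 47.6% and 48.8%. The largest far group had 15 rows and the largest of the other loci 59. Both lists were present in 29 far groups (40.3%), C13 alone in 8 and C14 alone in 35, and both were present in 93 groups of the other loci (32.2%).

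The nearest genes repeat accordingly. There were 35 in C13 and 59 in C14, and 28 were in both lists, a share of 80% for C13 and 47.5% for C14. Over the genes of all loci the shares were 67.0% and 43.3%. Of all 66 genes, 36 had a single far row, and the 8 with most rows held 90 (42.5%). FAM107A, an actin-associated stress-response gene, had 15 rows. C14H8orf33 and NUDT12 had 13 each, and PAK1, a kinase of cytoskeletal signalling downstream of Rac and Cdc42, and WBSCR17, an N-acetylgalactosaminyltransferase gene, had 11 each. TLE4 and TMEM261 had 10 each, and MSANTD3 had 7.

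The FAM107A group on chromosome 22 (42401884 to 42437206, 35.3 kb) lay 917122 to 952223 bp from the TSS. Its 4 C13 loci had pileups of 18, 10, 8 and 12 in order of position, and each overlapped a C14 locus. The C14 partners had 55, 20, 20 and 36. The other 7 of the 11 C14 rows, at 13 to 31 fragments, had no C13 counterpart, and 4 of these 7 lay within 1 kb of a C13 locus. C14 thus listed every C13 position of this group and others besides.

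In the NUDT12 group on chromosome 7 (105819116 to 105932498, 113 kb) 3 of 5 C13 loci and 3 of 8 C14 loci overlapped. The paired pileups were 11 and 47, 18 and 29, and 7 and 23 in C13 and C14. The unpaired C13 loci had 4 and 8 fragments and the unpaired C14 loci 8 to 18. In C14 every unpaired locus of this group was below every paired one, while in C13 the unpaired locus of 8 stood above the paired one of 7.

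The PAK1 group on chromosome 29 (19400878 to 19447360, 46.5 kb) held 5 C13 and 6 C14 rows, of which 4 and 5 overlapped. C13 pileups were 9, 6, 14 and 6 where C14 had 22, 15, 38 and, in a single interval with a pair of summits, 28 and 27. An unpaired C13 locus had 11. The strongest by fold in C14, at 34 fragments and 19.9-fold enrichment, lay at the far end of the group, with the nearest C13 locus 30279 bp away.

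WBSCR17 and TMEM261 leaned to opposite lists. WBSCR17 on chromosome 25 (30292490 to 30354824, 62.3 kb) had 9 C14 rows, with pileups of 8 to 34, and 2 C13 rows, with 8 and 9, of which 1 in each list overlapped. TMEM261 on chromosome 8 (36103707 to 36147343, 43.6 kb) had 7 C13 rows, with pileups of 4 to 9, and 2 C14 rows, with 18 and 16, and both C14 rows overlapped C13 loci. Where the lists met at TMEM261, the C13 pileups were 4 and 8. The 5 C13 loci without a partner there had 4, 7, 4, 9 and 9 fragments, none above the C13 median of 9.

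TLE4 on chromosome 8 (56719872 to 56853577, 134 kb) had 3 overlapping positions, with C13 pileups of 6, 8 and 5 against 16, 14 and 15 in C14. Its last locus in C13 (56853365 to 56853577) had 32 fragments, 19.2-fold enrichment and a −log10 q of 35.6, and the nearest C14 locus was 62946 bp away. No other far locus of C13 without overlap was as strong. In the C14H8orf33 group on chromosome 14 (392898 to 661036, 268 kb), the interval with most fragments had summits of 128 and 75 in C14 and of 29 and 28 in C13. MSANTD3 was the densest of the 8, with 7 rows in 4 kb on chromosome 15 (71059945 to 71063947), where a C13 interval with summits of 20 and 8 overlapped a C14 interval with 55 and 22.

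**Figure D4:**
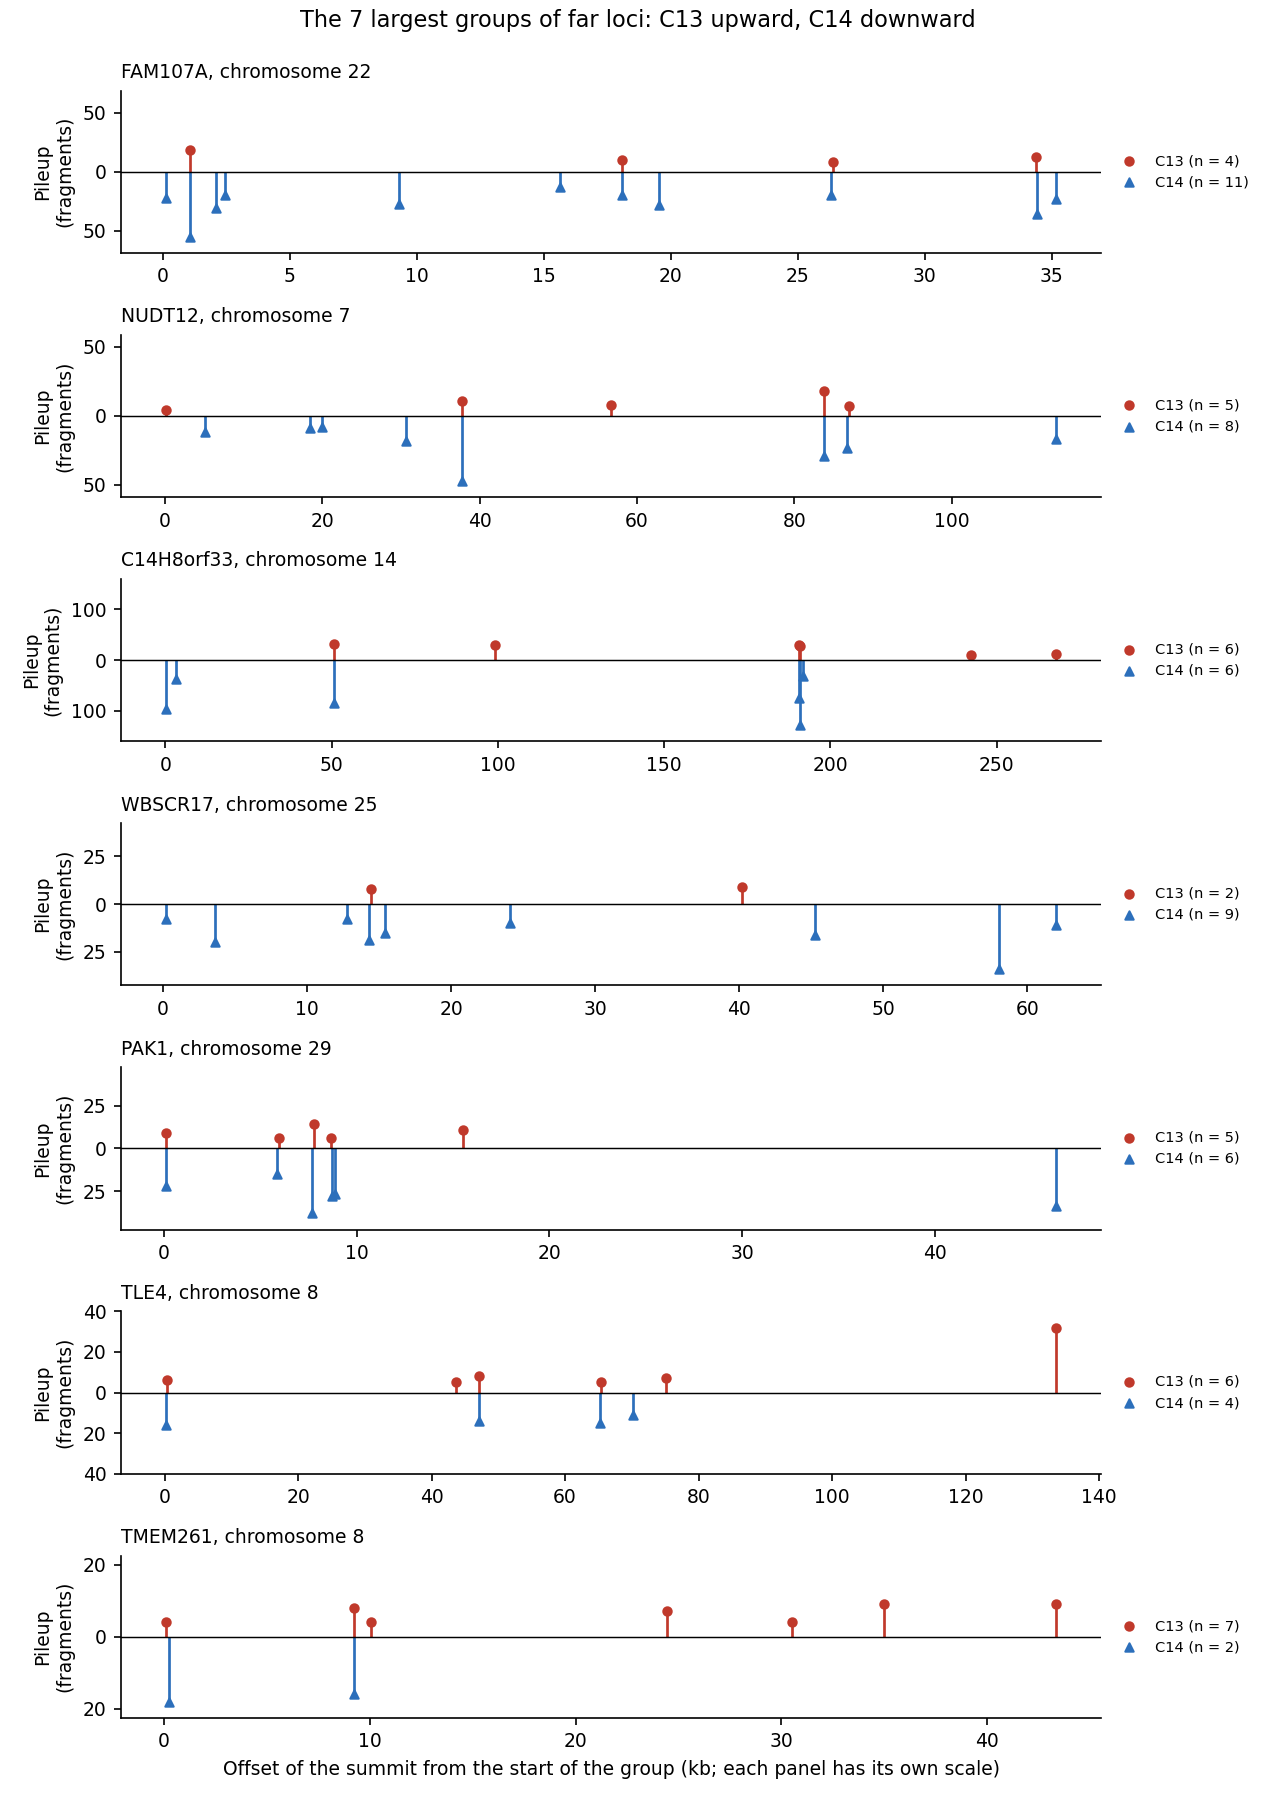
Pileup (fragments, C13 upward as red circles, C14 downward as blue triangles) against the offset of each summit from the start of its group (kb), for the 7 groups with 9 rows or more. Each panel has its own scale on both axes. At FAM107A each of the 4 C13 loci stands over a C14 locus, and at TLE4 the C13 locus of 32 fragments stands alone at the right end.

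Smaller groups near single genes showed the same nearness. PEX2, a peroxisome biogenesis gene, had 6 rows in 2.56 kb on chromosome 14, with C13 pileups of 8, 9 and 14 and C14 pileups of 20, 33 and 51. RGR, a retinal opsin-like receptor gene, had 6 rows in 3.36 kb on chromosome 28, with 5, 8 and 25 in C13 and 20, 24 and 27 in C14. At RGR the strongest C13 locus and its C14 partner were nearly equal, 25 and 27. GADD45G, a growth arrest and DNA damage response gene, had C13 loci of 16 and 11 overlapping C14 loci of 52 and 33 on chromosome 8, and 1 further C14 locus with 28. SMAD2, a mediator of TGF-beta signalling, had 1 interval in each list on chromosome 24, with summits of 8 and 8 in C13 and of 22 and 13 in C14. YPEL5 and ACO1 had 4 rows each and no overlap, although the nearest loci of the other list were 1186 to 12026 bp away.

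Far loci were shared between the lists about as often as other loci. In C13, 48 of 78 far loci (61.5%, interval 50.4 to 71.6) shared at least 1 bp with a locus of C14, where 57 percent of all C13 loci did, and 163 of the 292 other loci did (55.8%, 50.1 to 61.4). In C14, 54 of 134 (40.3%, 32.4 to 48.8) overlapped a C13 locus, where 36.6 percent of all C14 loci did, and 171 of the 480 others did (35.6%, 31.5 to 40). Neither difference passed the exact test (p = 0.440 and 0.362, both two-sided and both 0.660 after adjustment). When loci of a list within 100 kb were counted as 1, 27 of 37 far groups of C13 (73.0%) held a shared locus, against 78 of 153 (51.0%), with an unadjusted exact p of 0.0171. In C14 it was 28 of 65 (43.1%) against 77 of 230 (33.5%), with an exact p of 0.187. A group counts as shared when any member is, and far and other groups of C13 held a mean of 2.03 and 1.82 intervals. Without the loci whose background was over 10 times the lowest, the shared part was 30.8% of the far and 30.3% of the other C14 loci.

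Shared far loci were the stronger ones. In C13 the pileup had a median of 11 at the 48 shared loci and of 7 at the 30 others, and in C14 of 27.5 at the 54 shared loci and of 12 at the 80 others. The smallest pileup at a shared locus of C14 was 13. The lists hold only loci that passed the calling limit, so a missing overlap does not show that the damage was absent there.

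Many far loci without overlap lay near the other list. Of the 30 in C13, 12 (40%) had a C14 locus within 10 kb and 22 (73.3%) within 100 kb. Of the 80 in C14, 32 (40%) and 44 (55%) did. Among the other loci without overlap, the shares were 30.2% within 10 kb and 45.0% within 100 kb in C13, and 29.8% and 49.5% in C14. The far loci more than 1 Mb from the other list, or with no locus on that chromosome, numbered 6 in C13 (20%, against 39.5% of the other loci without overlap) and 29 in C14 (36.3%, against 40.1%).

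Among the far loci without overlap, the strongest beside the C14H8orf33 loci were picked after their values were seen. In C14 they were a locus of 55 fragments and 17.5-fold enrichment near UBE2E2 on chromosome 27 (43452482 to 43452760), with the nearest C13 locus 114862 bp away, and one of 50 fragments and 11.2-fold enrichment near ERI1, a histone mRNA exonuclease gene, also on chromosome 27 (23706386 to 23706750). The nearest C13 locus was 1446527 bp from the latter. By fold enrichment the first was CSMD3, which encodes a large membrane protein with complement-like domains, at 30 fragments and 22.8-fold on chromosome 14, with the nearest C13 locus 8909583 bp away. In C13, after TLE4, the next were loci of 14 fragments near PEX2 and of 12 near CPS1, the first enzyme of the urea cycle, at 516 and 665 bp from a C14 locus. With loci of 34 fragments near WBSCR17 and PAK1 in C14, which lay 17.6 and 30.3 kb from a C13 locus, the strongest loci without overlap were at very unlike distances from the other list.

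The overlaps formed 45 pairs of a C13 and a C14 interval. The C14 pileup was higher in 45 of 45 pairs, by 1.08 to 5.67 times, with a median ratio of 2.67 (2.44 to 3). At the 150 overlapping pairs of other loci the median was 2.44 (2.25 to 2.61), with C14 higher in 147. Each interval was taken at its highest summit. With the nearest summits paired instead, C14 was higher in 44 of 45 pairs, the exception being RGR with 25 and 24. Pileup is not scaled for depth, and the read totals that the study states were not used here. Fold enrichment showed no such direction, since it was higher in C14 in 21 far pairs and lower in 24 (20 and 25 at the nearest summits), with a median ratio of 0.948 (0.763 to 1.29). The local background was higher in C14 by a median of 7.50 times (4.99 to 8.38) at the far pairs and of 5.59 times (4.59 to 6.36) at the other pairs. The lowest background of the whole C14 list was itself 2.66 times that of C13 (0.359 and 0.135 fragments). These lowest values are the floors given above, at which some of the pairs lie.

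The summits of most pairs lay close together. They were 1 to 331 bp apart with a median of 18 bp, and 26 of 45 were within 20 bp, while 11 (24.4%) were over 100 bp apart. At the other pairs 17 of 150 (11.3%) were. These offsets are between highest summits, so an interval with several summits can raise them. Between nearest summits the far pairs had a median offset of 12 bp and a largest of 306 bp. Offsets over 100 bp are not given by nearest summit for far or other pairs. Both ends were the same in 2 pairs. These were near C1QTNF7, a secreted adipokine-family gene (chromosome 6, 114730773 to 114731014, pileups 16 and 40), and near DOK5 (chromosome 13, 83070326 to 83070831, pileups 12 and 36).

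The pairs with the highest summed pileup were C14H8orf33, with 29 and 128 fragments in C13 and C14 and again with 32 and 84, then NDST3 with 35 and 47, MSANTD3 with 20 and 55 and FAM107A with 18 and 55. By fold enrichment these 5 pairs differed. At NDST3 the C13 and C14 values were 13 and 7.54, and at MSANTD3 they were 16.4 and 23.3. At FAM107A they were 12.7 and 16.8, and at the second C14H8orf33 pair 3.97 and 2.27. In the first C14H8orf33 pair the highest summits lie 250 bp apart, with 5.30 and 8.41, while the summits 5 bp apart had 8.33 and 8.41, nearly equal. The named MSANTD3 and FAM107A pairs were thus higher in C14 on both scales, while the second C14H8orf33 pair had more fragments and less enrichment.

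**Figure D5:**
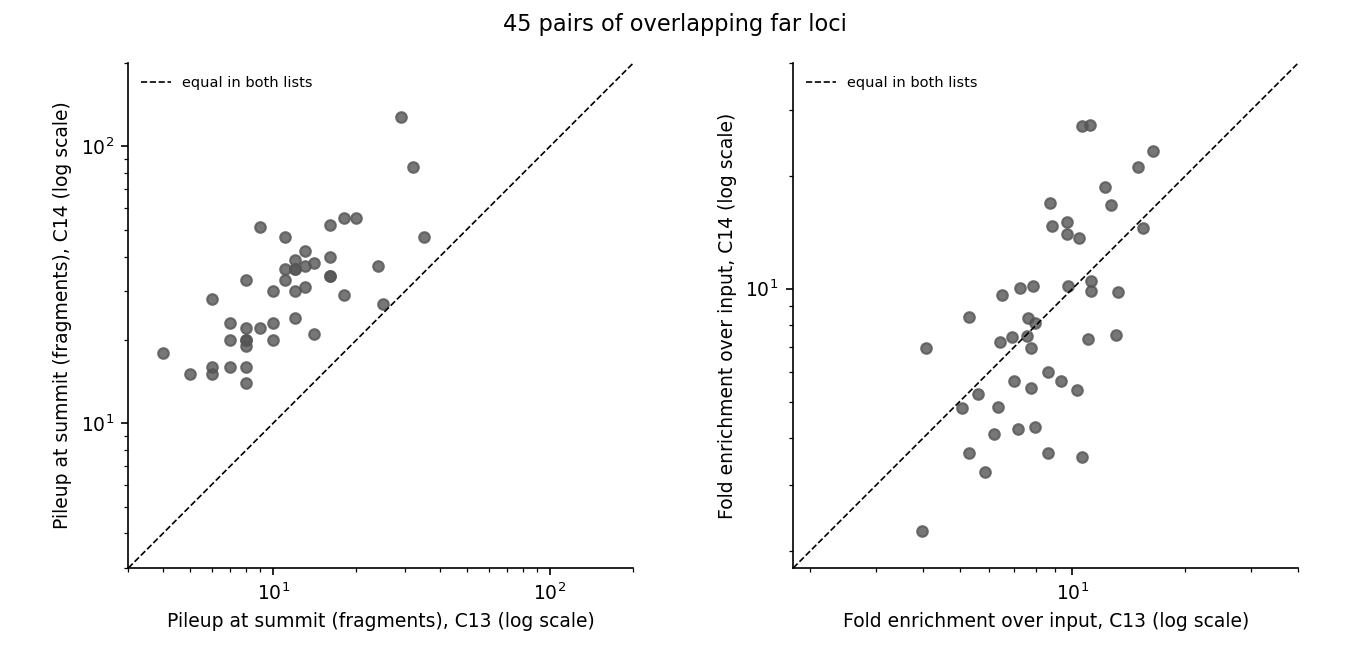
C14 against C13 at the 45 pairs of overlapping far loci, as pileup (left, fragments) and fold enrichment over input (right), on log axes. The dashed line marks equal values. All 45 pairs lie above the line for pileup, and 21 lie above and 24 below it for fold enrichment.

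Most loci that stood alone had low pileups, with exceptions in C14. A far interval with no other far interval of either list within 100 kb, which by construction cannot overlap a far locus, occurred 8 times in C13 and 34 times in C14. The 8 in C13 had pileups of 4 to 8 with a median of 4, and 1 reached a −log10 q of 5. The 70 rows in groups had a median of 9.5, and 53 reached it. The 34 lone rows of C14 had 5 to 55 fragments with a median of 6.5, and 7 reached it, against a median of 22 and 81 of 100 in groups. The lone C14 loci include those of 55 fragments near UBE2E2 and 30 near CSMD3 given above. Genes with far loci in C13 alone, 7 with 7 rows, had a median pileup of 4, and 2 of them had a locus in C14 that was not a far one. Genes with far loci in C14 alone, 31 with 33 rows, had a median of 7, and 4 of them had such a locus in C13.

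Few of the 66 genes fell in the gene classes looked for. Cadherins and protocadherins, the calcium-dependent adhesion proteins, had 4 genes (CDH10, CDH11, CDH12 and PCDH7), with 2 of 78 far loci in C13 (2.56%) and 6 of 134 in C14 (4.48%). Among the other loci they had none in C13 and 1 in C14 (0.208%). CDH11, on chromosome 18, held most of these, with 1 C13 locus of 16 fragments that overlapped a C14 interval with summits of 16 and 34. PCDH7 had a single C13 locus of 4 fragments, and CDH10 and CDH12 a single C14 locus each. The 5 CDH11 rows lay in 5.78 kb, so they are 1 place and not 5 independent ones.

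Ion channel genes had 2 C14 loci, near ANO5 and KCNV1 (1.49% of the far loci, with 1 of the other loci in each list). PANX1, which forms large-pore membrane channels, is not in that pattern and had 1 overlapping locus in each list, with 16 fragments in C13 and 34 in C14. The growth factor BMP2 had 1 C14 locus, where cytokines and growth factors had 3 and 2 of the other loci in C13 and C14. The list of sperm and germ cell genes matched 1 gene, ADAMTS9, by its first letters, and ADAMTS9 is an extracellular matrix protease gene that is not known as a germ cell gene. PRPS1L1, a testis-expressed gene of nucleotide synthesis, and ZP4 are outside the pattern and had 1 C14 locus each, with 5 and 11 fragments. No far locus was nearest to a gene matched by the patterns for neuronal adhesion and guidance, neurotransmitter receptors, developmental transcription factors, microRNAs or olfactory and taste receptors. The patterns do not cover every gene of a kind, and the neuronal adhesion genes ADGRL2, ADGRL3 and NXPH1 lie outside them, with 1 far locus each. These classes were also small among the other loci. Developmental transcription factors had 12 in C13 (4.11%) and 16 in C14 (3.33%), and microRNAs had 4 (1.37%) and 16 (3.33%). Neuronal adhesion and guidance had 8 (2.74%) and 4 (0.833%), neurotransmitter receptors had 5 (1.71%) and 2 (0.417%), and olfactory and taste receptors had none. The sperm and germ cell list had 10 (3.42%) and 18 (3.75%). SRY, the testis-determining factor, is not in the pattern of the transcription factor list and had 1 C14 locus, under the placement on chromosome 13 given above.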

How the data were processed

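8-oxoG was measured by OG-seq, in which DNA fragments are captured through the oxidised base and sequenced. The authors aligned the paired-end reads to bosTau8 with Isaac, removed duplicates with Picard, called loci per bull against that bull's input with MACS2 and annotated them with ChIPseeker, and the deposited lists hold the loci above their limits of a 2-fold enrichment and a q of 0.05. The lists bear these limits out, with a lowest enrichment of 2.27 and a lowest −log10 q of 1.31. In the deposited lists the pileup is a signal (stacked fragments, whole numbers, not scaled for depth), the fold enrichment is a ratio to the local background, and the p-value and q-value are given as −log10. Pileups were compared without scaling for depth, and the read totals that the study states were not used here. Sequences of the loci were not used here.

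Far loci were those annotated as distal with an absolute distance above 400 kb. Members, gene lists and tests were chosen with earlier results of these data known. Overlap needed 1 shared bp, and intervals within 100 kb were linked. Shares have 95% Wilson intervals, medians have order-statistic intervals, and 3 comparisons used Fisher's exact test (two-sided, threshold 0.05) with Benjamini-Hochberg adjustment (python 3.11.15, pandas 2.3.3, scipy 1.17.1). The functions were tested on simulated data. Genes were named by rule: the 8 with most far rows, those of the 5 farthest loci, the 3 highest pileups and 3 highest fold enrichments per list, the 2 loci inside and outside the limit, the 5 pairs of highest summed pileup, and the gene classes. Further groups and the strongest loci without overlap were picked after their values were seen. Alternatives were other distance limits, a −log10 q of at least 5, distinct intervals, linked groups and other overlap rules. Each bull had 1 library of each kind, so no replicate could be left out.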

Additional observations from a re-analysis of the deposited data

How the results depend on the processing

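No paired analysis was possible because each bull had 1 library of each kind and the result comes from no replicates. Of 75 values computed under alternatives, 63 stayed on the same side or within the error of the main value. The far share moved with the limit by definition, to 25.7% in C13 and 25.9% in C14 at 300 kb, 16.6% in C14 at 500 kb, and 5.95% and 4.23% at 1 Mb. With a −log10 q of at least 5, the C14 far loci were 88 and their genes 33, and the overlap was 74.1% in C13 and 51.1% in C14, against 71.2% and 46.7% of the other loci (Fisher's exact p = 0.736 and 0.473). Counting each linked group of C13 once gave an overlap of 73.0% and brought Fisher's exact test below its threshold (p = 0.0171, odds ratio 2.60). Leaving out loci of high local background, an alternative chosen after seeing the data, took the C14 overlap to 30.8%, against 30.3% of the other loci (Fisher's exact p = 0.906). The cause was not tested for these last 3 changes. With 1 library per bull the spread between animals is unknown, and a locus with a pileup of 4 rests on 4 fragments.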
